A study of Homo sapiens with 4 samples.

Results

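Windows bound by YTHDF1 that overlapped on opposite strands of the genome were examined in the human gastric cancer cell line SNU638. They were found in the deposited list of 50 bp windows after exact repeat rows were dropped. A window was a member if it shared 1 bp or more with a window of another gene identifier on the other strand. This held for 233 of 26819 listed windows (0.869%). The members came from 155 of 7550 genes with a listed window and formed 152 window pairs in 81 gene pairs.

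The series held 4 libraries of RNA immunoprecipitation sequencing (RIP-seq), with 2 biological replicates of IP-YTHDF1, the RNA pulled down with YTHDF1, and 2 of Input, the total RNA of the lysate. All 4 came from cells that overexpressed YTHDF1, spent 24 h in serum-free medium and then a further 24 h with IFN-γ at 10 ng/ml, so no untreated cells and no cells without overexpression entered the comparison. According to the study's methods, the immunoprecipitation was directed at a FLAG tag, which the overexpressed protein carries and the cells' own YTHDF1 does not. Each window has 1 signal value, 1 p-value and 1 q-value, with none per library. Depth and replicate spread are therefore unknown, and no difference between windows was tested here. The paper describes its peaks as a union of the replicates. Whether a value covers both replicates or 1 of them is not given in the sources used here.

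YTHDF1 is a cytoplasmic protein that reads N6-methyladenosine (m6A), a mark placed on mRNAs and on many long non-coding RNAs (lncRNAs). In a sense-antisense pair, both strands of the same DNA are transcribed, and the products are separate RNAs that carry complementary bases where the transcripts overlap. Antisense lncRNAs, often named with the suffix -AS after the gene opposite them, are known for local effects on the expression of that gene. The m6A mark is placed on adenosines within the DRACH motif, which reads differently on each strand, so the strand of a window decides which letters could be marked.

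The letters are shown first for 2 of the 3 gene pairs whose shared DNA lay, at least in part, within a promoter sequence of the RefSeq table (GRCh38.p14), because the same DNA can be compared there on both strands. For the other pair, LURAP1L with LURAP1L-AS1, the table holds 15 shared bases, with no match to the motif on either strand. JUNB, which encodes a subunit of the AP-1 transcription factor, had a window at chr19:12792487-12792536 on the plus strand. HOOK2, which encodes a protein that links cargo to microtubules, had one at chr19:12792504-12792553 on the minus strand, upstream of a RefSeq start of HOOK2 at 12792350. MGAT2, an enzyme of N-glycan synthesis, and the lncRNA AL139099.1 shared DNA just after the MGAT2 start at 49620799, and 30 bases of it are given as each strand reads (chr14:49620816-49620845). All 4 sequences run 5′ to 3′, and capitals mark matches to any of the 18 DRACH pentamers (NNACN with A, G or T first, A or G next and A, C or T last), searched on both strands with overlaps allowed.
JUNB window, plus strand: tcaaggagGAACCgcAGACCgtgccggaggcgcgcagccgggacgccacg
HOOK2 window, minus strand: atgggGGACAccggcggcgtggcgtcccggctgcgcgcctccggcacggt
MGAT2 strand, shared part: taacggtccccgccggagtgaggcgaggcc
AL139099.1 strand, shared part: ggcctcgcctcactccggcggGGACCgtta

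The JUNB window held 2 pentamers on its own strand and the HOOK2 window held 1, and the 3 matches lay at different places. The 33 bp that the JUNB and HOOK2 windows shared (chr19:12792504-12792536) held no whole pentamer on either strand, and the second JUNB match crossed its edge, with the central A of the motif as the first shared base. In the MGAT2 and AL139099.1 stretch, the only match was on the strand of the lncRNA. Such matches are common: a stretch of 50 bases at the same place held a pentamer in 52.25% of 35116 RefSeq promoters for the strand of JUNB and in 52.9% for the strand of HOOK2, and the 30 base stretch did so in 32.3% for the strand of AL139099.1. A match is only a description of these letters. JUNB had a signal value of 1.21 in its member window and HOOK2 had 1.56. In MGAT2 the window that holds the printed stretch (chr14:49620800-49620849) had 2.38, and that of AL139099.1 (chr14:49620816-49620865) had 2.63.

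Pairs of a coding gene and a lncRNA were the most frequent class, with 45 of 81 gene pairs (55.6%, Wilson 95% interval 44.7% to 65.9%). The lncRNA had a clone name such as AL139099.1 in 28 of them and an -AS name in 15, and the other 2 were C5orf56 and PCAT1. Pairs of 2 coding genes followed with 22 (27.2%, interval 18.7% to 37.7%). A coding gene lay opposite a pseudogene in 6 pairs and opposite a small or other RNA gene in 4. In the other 4 pairs neither gene was coding: 3 joined a lncRNA with a pseudogene (AC114956.3 with EEF1A1P19, EIF2S2P4 with AC007405.1, OOEP-AS1 with RPL39P3) and 1 joined a pair of lncRNAs (LINC01694 with AL133493.1). These intervals cover counting error only.

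By gene, a member window was found in 47 of 519 listed lncRNA genes (9.06%) and in 96 of 6679 coding genes (1.44%). Among genes with an -AS symbol it was found in 14 of 105 (13.3%). Pseudogenes had members in 8 of 314 genes and small or other RNA genes in 4 of 38. Of the members, 156 windows were in coding genes, 61 in lncRNA genes, 12 in pseudogenes and 4 in small or other RNA genes, with 119 on the plus strand and 114 on the minus strand.

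The signal value of the members ran from 0.76 to 5.08 with a median of 1.91, and that of all listed windows from 0.70 to 9.46 with a median of 1.84. The scale of this value is not stated, so it is used only to order windows of the same list. A signal value of 2 or more was found in 100 of 233 members (42.9%), against 37.2% of all listed windows. A q-value at or below 0.001 was found in 129 members (55.4%), against 43.7% of all. By class, the median was 1.68 (1.675) in coding members and 1.83 in all coding windows, whereas it was 2.11 in lncRNA members and 2.00 in all lncRNA windows. The 12 pseudogene members had a median of 2.965, against 2.12 in all pseudogene windows. The 4 members in small or other RNA genes had a median of 1.745, against 1.96 in all windows of that class. The median was thus lower in members than in all windows for coding and for small or other RNA genes, and higher for lncRNA genes and pseudogenes. In coding genes the q-value went the other way from the signal value, with 57.05% of members at or below 0.001 against 43.65% of all coding windows. These are descriptions of 1 list with no test.

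Most gene pairs touched at few windows. A single window pair was found in 45 gene pairs, 2 window pairs in 23 and 3 or more in 13. The length covered on both strands had a median of 49 bp per gene pair and ran from 7 bp in ZNF32-AS3 with ZNF32 to 200 bp in AFAP1-AS1 with AFAP1. Because the windows of a gene lie on a fixed 50 bp grid, the overlap of a single window pair is set by the offset of 2 grids, and it is not a measure of binding. The overlaps ran from 3 to 50 bp with a median of 28 bp.

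At the edge of the rule, 3 window pairs shared 3 bp, the least found. They were 1 each in ALKBH5 with AC087164.1 (1.55 and 2.22), CYB5D2 with ANKFY1 (1.86 and 1.47) and TUBB with AL662797.1 (1.74 and 2.51). Each of these gene pairs had a further window pair with 47 bp in common, so none rested on the 3 bp alone. Just outside were U2AF2 with AC008735.2, whose windows lay 5 bp apart (1.62 and 1.95), and NR2F1 with NR2F1-AS1, 7 bp apart (1.23 and 1.42). In all, 9 gene pairs came within 50 bp of each other on opposite strands without an overlap, and 22 more within 51 to 200 bp.

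Whether the 2 strands of a stretch gave the same value was examined first in windows with nearly the same coordinates. In 14 window pairs that shared 47 bp or more, the absolute difference in signal value had a median of 0.485, and none of the 14 was within 0.1. Windows of 2 genes on the same strand with an overlap of 47 bp or more were set beside them. These windows cover nearly the same bases of the same strand and can hold the same reads, so they are not a neutral reference. Their difference had a median of 0.10 in 235 window pairs, and 123 of them were within 0.1. On the same strand the median difference was 0.38 at overlaps of 11 to 25 bp and 0.07 in the 60 pairs with identical coordinates. On opposite strands it was 0.575 at 11 to 25 bp and stayed between 0.46 and 0.60 in every overlap range plotted. Neighbouring windows of the same gene, which share no base, differed by a median of 0.35. Of the 233 members, 21 (9.01%) also overlapped a window of another gene on their own strand, against 11.1% of all listed windows.

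**Figure D1:**
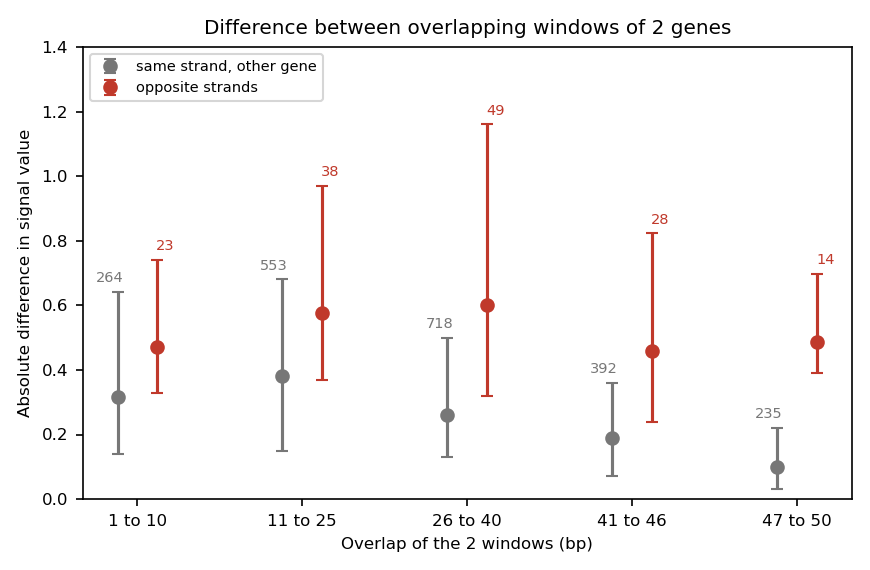
Absolute difference in signal value (vertical axis, authors' scale) between overlapping windows of 2 genes, by the overlap in bp (horizontal axis), for genes on the same strand (grey) and on opposite strands (red). Points are medians, bars run from the 25th to the 75th percentile, and the numbers are window pairs. The grey medians are 0.315 at 1 to 10 bp and 0.38 at 11 to 25 bp and fall to 0.10 at 47 to 50 bp, and the red ones stay between 0.46 and 0.60.

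The 3 window pairs with identical coordinates show the difference directly. In AC083837.1, a lncRNA, and IL7, which encodes a cytokine of lymphocyte growth, the window had 3.22 on the strand of the lncRNA and 1.85 on that of IL7. ABHD15-AS1 had 1.62 opposite 1.23 in ABHD15. GNAL, a G protein alpha subunit, had 1.92 opposite 2.21 in CHMP1B-AS1. The libraries were made with a stranded kit according to the labels, while the use of strand in the counting is not given in the sources used here.

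Over all 152 window pairs, the absolute difference between the strands had a median of 0.535 and ran from 0.01 to 2.72. It was above 1 in 37 window pairs and at most 0.2 in 18. The smallest differences, of 0.01, were in 2 window pairs of AFAP1-AS1 with AFAP1 (2.64 and 2.62 opposite 2.63), in MTMR3, a lipid phosphatase gene, with AC003681.1 (1.90 and 1.89) and in PCAT1 with LRATD2 (1.95 and 1.94). A second window pair of MTMR3 differed by 0.04 (1.93 and 1.89). The largest was in SERHL2 with RRP7BP (1.91 and 4.63), followed by RN7SL1 with RPS29 (1.43 and 4.05) and by 2 window pairs of OR2I1P with GABBR1 (1.16 opposite 3.52 and 3.30). A second window pair of SERHL2 with RRP7BP came next (3.02 and 5.08). In both of these window pairs of SERHL2 the windows shared only their ends, so they compare different places. The windows of SERHL2 and RRP7BP that started 6 bp apart had 4.13 and 5.08, 3.02 and 4.63, and 1.91 and 2.34. Both windows had a q-value at or below 0.001 in 45 window pairs, 1 of them did in 76 and neither did in 31.

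The values of the 2 strands had a Pearson correlation of 0.31 and a Spearman correlation of 0.205 across the 152 window pairs. These come from 1 list and, in part, share windows. The Pearson correlation depended on which loci were kept. It was 0.15 without the gene pairs of SERHL2, 0.10 without pseudogenes and small or other RNA genes, and 0.04 without windows that overlap another gene on their own strand, but 0.557 among window pairs with both q-values at or below 0.001. No relation is read from it.

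**Figure D2:**
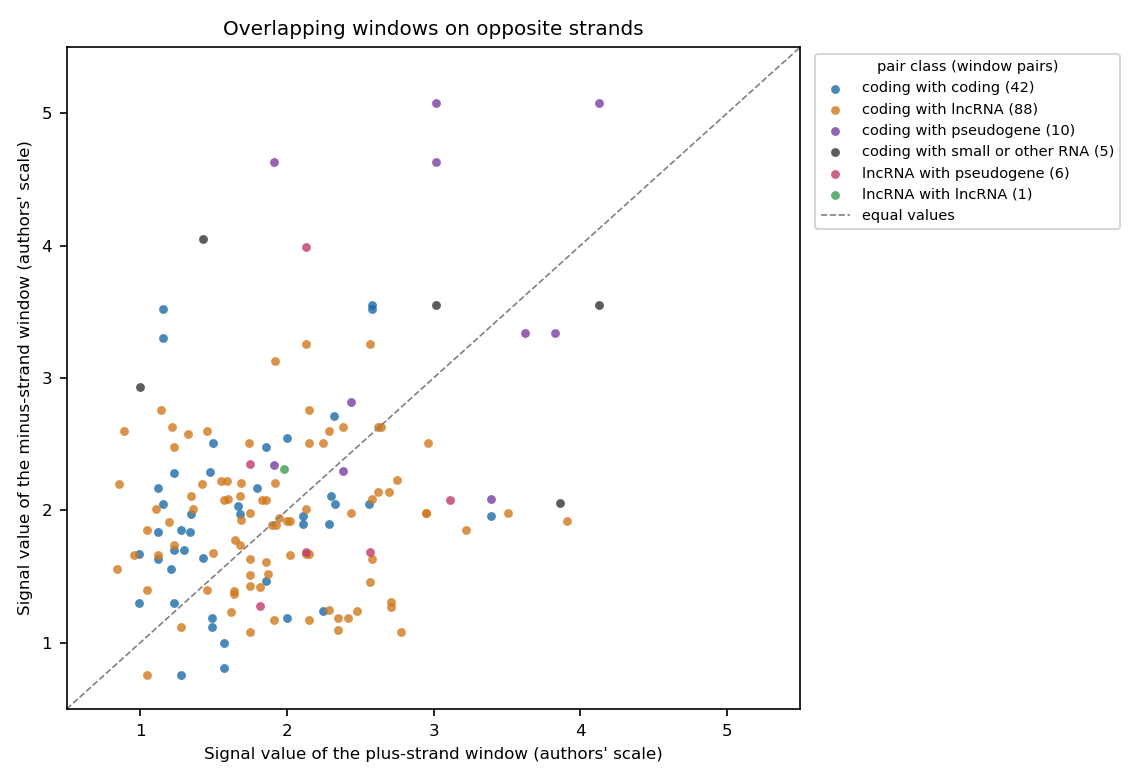
Signal value of the plus-strand window (horizontal axis) against that of the minus-strand window (vertical axis), both on the authors' scale, for each of the 152 window pairs, coloured by the classes of the 2 genes. The dashed line marks equal values. The points scatter widely on both sides of the line, and those above 4 on either axis are SERHL2 with RRP7BP or RN7SKP80 and RN7SL1 with RPS29.

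Of the 16 gene pairs with an -AS name, 11 had an -AS gene named for the gene opposite it. The strongest member window was higher in the -AS gene than in its partner in 13 of the 16 and lower in 3. The medians were 1.925 in the -AS genes and 1.69 in the partners. For comparison, all listed windows of -AS genes had a median of 2.00 and those of coding genes 1.83. The median q-value was 0.00097 in all members of -AS genes and 0.00042 in all coding members.

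AFAP1-AS1, a lncRNA often studied in cancers, and AFAP1, which encodes an actin-binding adaptor, shared more sequence than any other gene pair listed, with 8 window pairs and 200 bp on both strands of chromosome 4. The 9 listed windows of AFAP1-AS1 (ENSG00000272620) ran without a break from chr4:7772241 to 7772690, and 6 of them were members. The strongest, at chr4:7772241-7772290, had a signal value of 3.51. All 4 listed windows of AFAP1 (ENSG00000196526) were members and lay in 2 blocks, with 1.98 in both windows of the first block and 2.63 and 2.14 in the second. The coding gene thus had no listed window outside the stretch of the listed AFAP1-AS1 windows. No gene has more than the 9 windows listed for AFAP1-AS1.

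The other -AS pairs touched at 1 or 2 window pairs. CCDC144NL-AS1 had the largest value of the -AS genes, 3.91, opposite 1.92 in CCDC144NL. ZNF32, a zinc finger gene, had a single member window (1.08) that overlapped both ZNF32-AS1 (2.78) and ZNF32-AS3 (1.75). BOK-AS1 had 2.76 in its only listed window, opposite 2.15 in BOK, a pro-apoptotic member of the BCL-2 family. CHMP1B-AS1 had 2.21 in its only listed window, which overlapped CHMP1B, a subunit of the ESCRT-III membrane-scission complex (1.69), and GNAL (1.92). OOEP-AS1 (1.82) lay opposite OOEP (1.42), an oocyte gene, and the pseudogene RPL39P3 (1.28). The values were 1.93 and 1.69 in ZSCAN16-AS1 and ZNF165, 1.66 and 1.12 in NRSN2-AS1 and SOX12, 1.78 and 1.65 in LURAP1L-AS1 and LURAP1L.

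The coding gene was higher in 3 pairs. CDKN2B, which encodes the cyclin-dependent kinase inhibitor p15, had 3.13 at chr9:22009054-22009103 and a deposited q-value of 1.26e-11. CDKN2B-AS1, the lncRNA also known as ANRIL, had 1.92 at chr9:22009040-22009089 and a deposited q-value of 0.0175, and no other window of it is listed. IL21R, the receptor of interleukin-21, had 2.75 opposite 2.23 in IL21R-AS1, and each gene had this window alone. HOXB6, a homeobox transcription factor gene, had 2.08 opposite 1.86 in HOXB-AS3.

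**Figure D3:**
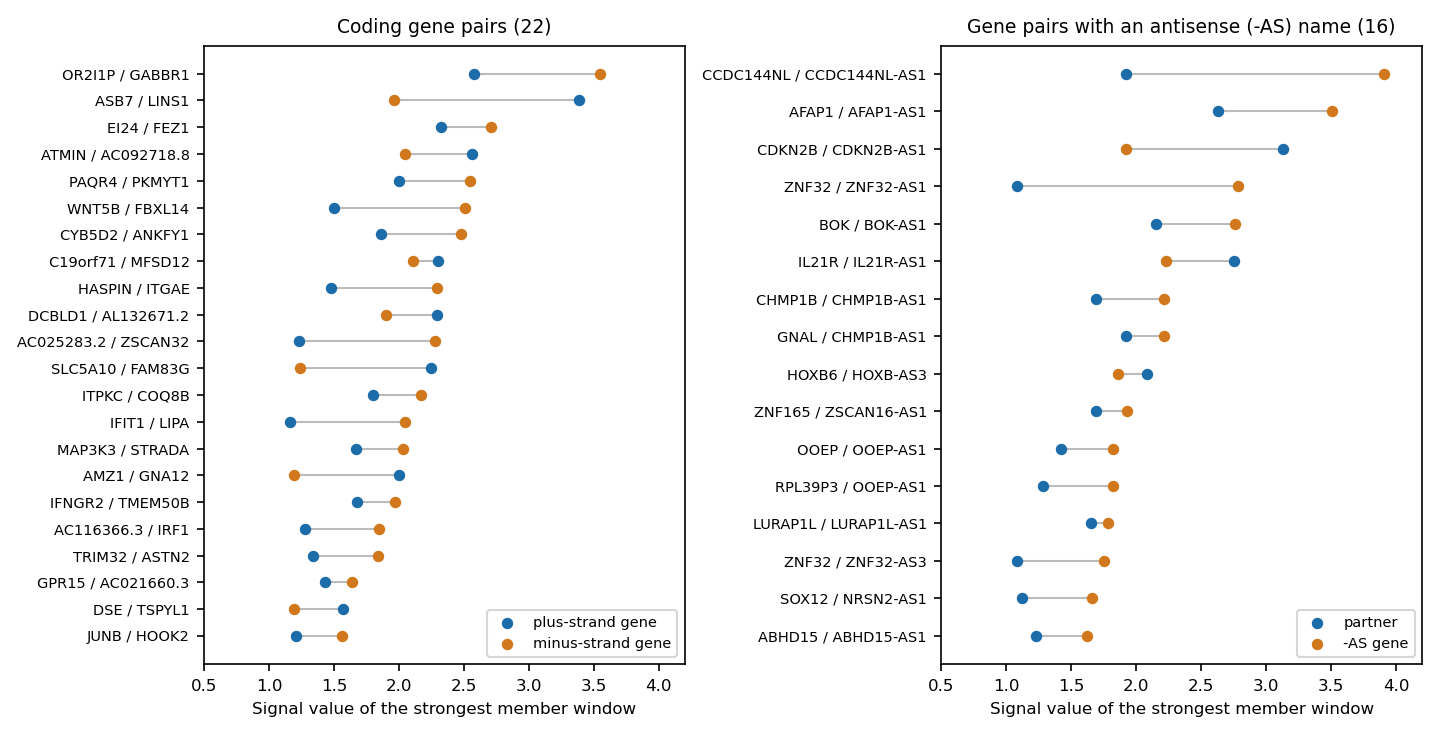
Signal value (horizontal axis, authors' scale) of the strongest member window of each gene, for the 22 pairs of coding genes (left, blue for the plus-strand and orange for the minus-strand gene) and the 16 pairs with an -AS name (right, blue for the partner and orange for the -AS gene). Grey lines join the genes of a pair. On the right, orange lies to the right of blue in 13 of 16 pairs, and the widest gap is 1.99, in CCDC144NL.

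Across all 45 pairs of a coding gene and a lncRNA, the lncRNA had the higher of the strongest member windows in 33 and the coding gene in 12. The median was 2.09 in the lncRNAs and 1.69 in the coding genes, and the difference of lncRNA minus coding gene ran from -1.21 to 1.99. For comparison, all listed windows had a median of 2.00 in lncRNA genes and 1.83 in coding genes. The q-value went the other way, with a median of 0.0027 in all lncRNA members and 0.00042 in all coding members. A higher signal value is thus not read as stronger binding. The 45 coding genes lay on the plus strand in 23 pairs. Several lncRNA genes with clone names followed a coding gene over more than 1 window. AC092040.1 and PRICKLE2, a planar cell polarity gene, met at 3 windows of the lncRNA, with 2.71, 2.35 and 2.15 in the lncRNA and 1.10 to 1.67 in the 6 member windows of PRICKLE2. MGAT2 and AL139099.1 overlapped at 6 window pairs, and both were strongest at the 5′ side of MGAT2. TUBB, a beta-tubulin gene, had 2.96 at chr6:30723353-30723402 opposite 2.51 in AL662797.1, and 0.84 at the next shared place opposite 1.56. PHLDA1 had 1.12 opposite 1.28 in AC011611.3, and each had 1 listed window.

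**Figure D4:**
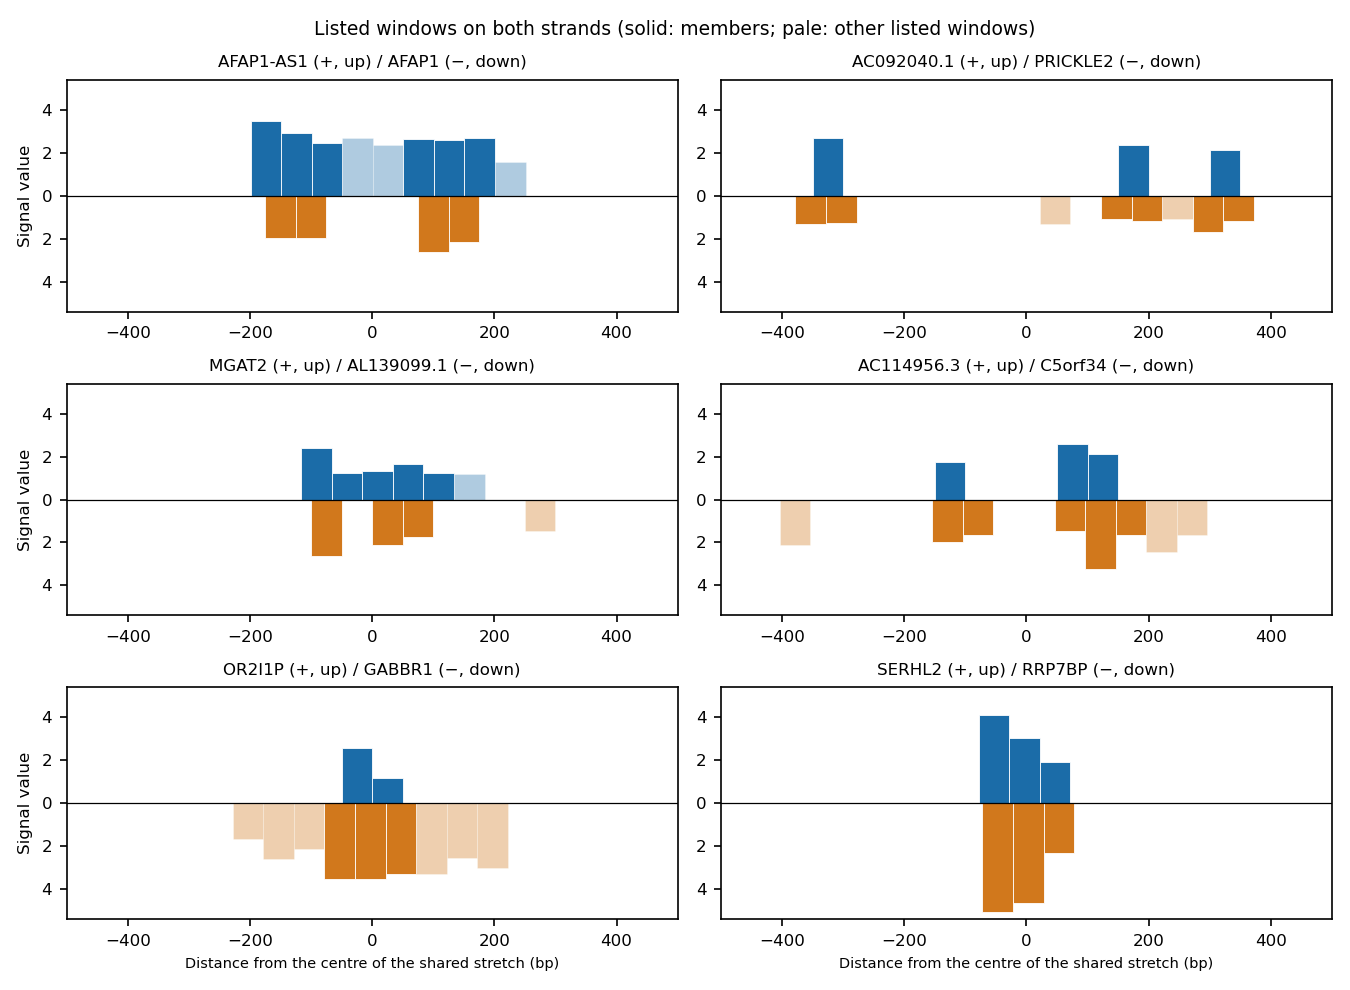
Signal value (vertical axis, authors' scale; plus strand upward, minus strand downward) of the listed windows against distance in bp from the centre of the shared stretch for 6 gene pairs with 4 or more window pairs. Solid bars are members and pale bars other listed windows of the same genes, each 50 bp wide. In AFAP1-AS1 with AFAP1 the minus-strand windows form 2 blocks under a continuous plus-strand block, and in SERHL2 with RRP7BP both strands fall from left to right.

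Genes of the IFN-γ response were of interest to the study, and 3 of the 15 listed genes of an IFN-γ list of 25 were members, namely IRF1, IFNGR2 and ICAM1. Over all listed genes, 155 of 7550 (2.05%) had a member window, and the difference was not tested. IRF1 encodes a transcription factor induced by IFN-γ. It had 3 listed windows, of which 2 were members, with 1.85 at chr5:132486960-132487009 and 0.76 at chr5:132487010-132487059. Both overlapped windows of 2 plus-strand genes. One was AC116366.3 (ENSG00000283782, coding in the table) with 1.28 at chr5:132486983-132487032 (deposited q-value 0.00239). The other was C5orf56 (ENSG00000197536, a lncRNA) with 1.05 at chr5:132486987-132487036 (deposited q-value 0.0164). These 2 plus-strand windows are 4 bp out of step and describe nearly the same bases. The strongest IRF1 window, with 2.37, did not overlap a listed plus-strand window. In both plus-strand genes the window opposite IRF1 was the lowest of 8 listed windows, the others ranging from 1.81 to 2.95 in AC116366.3. C5orf56 is named CARINH in RefSeq, where it ends at position 132476044 and the interval of IRF1 opens at 132481609, so the 2 intervals do not overlap there and the window opposite IRF1 lies outside the RefSeq interval.

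IFNGR2 encodes the signalling subunit of the IFN-γ receptor. Its 2 member windows, at chr21:33432747-33432796 and chr21:33432797-33432846, had 1.35 and 1.68 and lay opposite the only listed window of TMEM50B (1.97), whose 3′ end overlaps that of IFNGR2. The other 5 listed windows of IFNGR2 ran from 1.02 to 2.18. ICAM1, an adhesion receptor for leukocytes, had 2.58 in its member window, its strongest, opposite 1.63 in AC011511.2, and its other 4 windows ran from 0.88 to 1.45. IFIT1, an interferon-induced protein that binds RNA, was not on the list and was named after its values were seen. It had 1.16 opposite 2.05 in LIPA, the lysosomal acid lipase gene that contains it on the other strand, and the LIPA window was the only one listed for that gene. HLA-B is described with the pseudogenes. Of 16 m6A writers, erasers and readers, 14 had a listed window. Of these 14, 1 was a member (against 2.05% of all listed genes), the m6A eraser ALKBH5. It had 1.55 and 1.59 opposite 2.22 in the single window of the lncRNA AC087164.1.

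**Figure D5:**
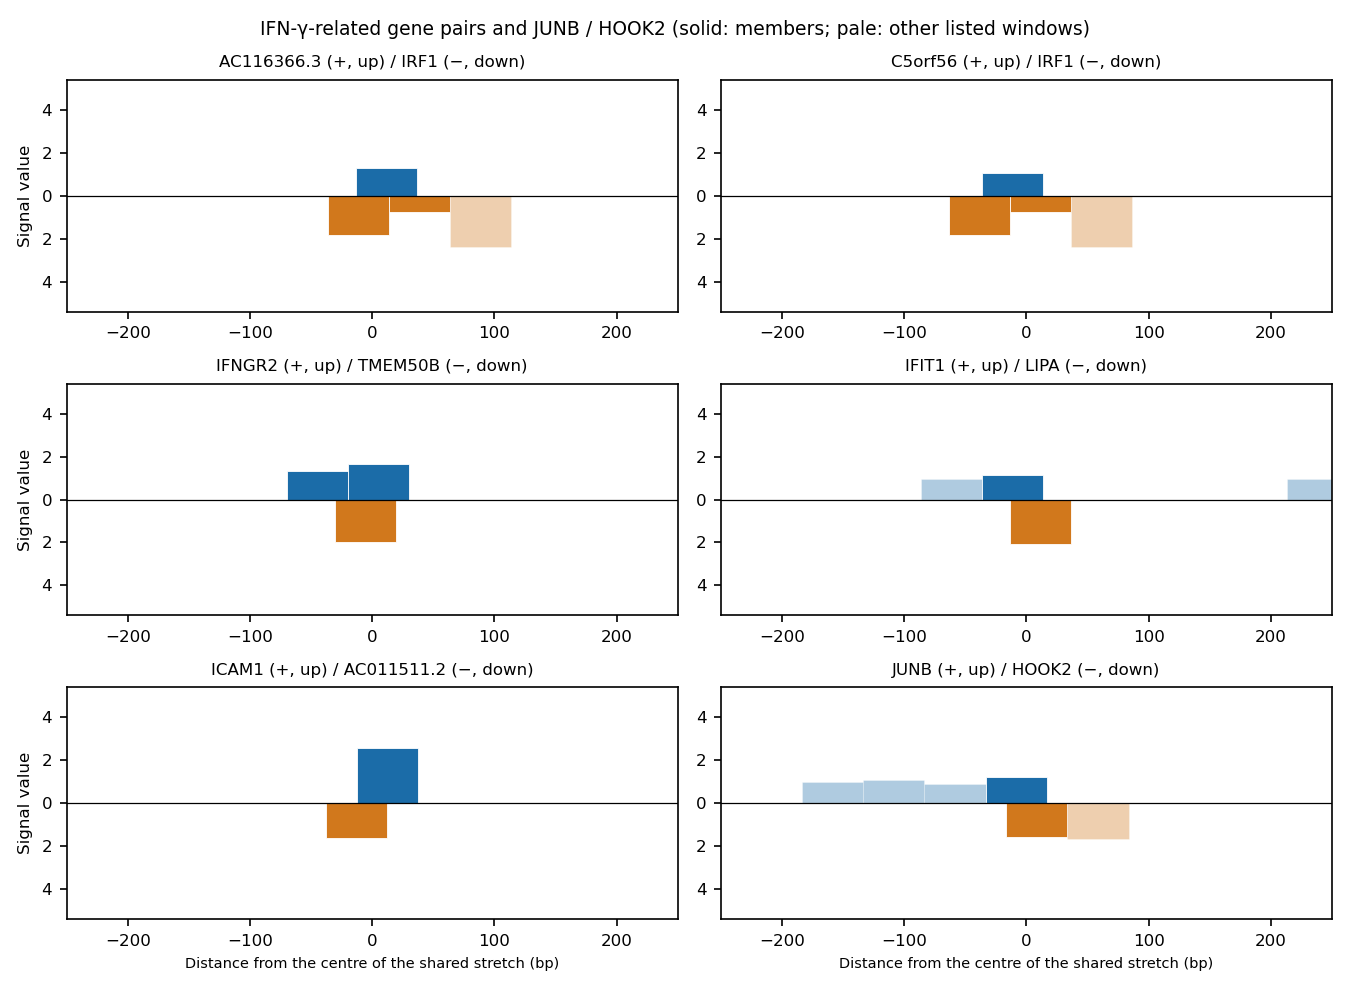
Signal value (vertical axis, authors' scale; plus strand upward, minus strand downward) of the listed windows against distance in bp from the centre of the shared stretch for IRF1 with each of its 2 partners, IFNGR2, IFIT1, ICAM1 and JUNB. Solid bars are members, pale bars other listed windows. The tallest IRF1 window, at 2.37, is pale, and the ICAM1 member window, at 2.58, is the tallest member in the 6 panels.

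Among the 22 pairs of coding genes, the minus-strand gene was higher in 15 and the plus-strand gene in 7, with medians of 2.04 and 1.74. A clone-named gene took part in 5 of them. PAQR4, a membrane receptor-like gene, and PKMYT1, a kinase that inhibits CDK1, had 6 window pairs at 2 places. The first lay at chr16:2969571-2969624, with 2.00 in PAQR4 and 2.55 in PKMYT1. That PKMYT1 window lay 3184 bp beyond the 3′ end of the RefSeq gene. At the second place, around that 3′ end, the windows had 0.99 to 1.30 in PAQR4 and 1.30 to 1.70 in PKMYT1. DSE, a dermatan sulfate epimerase gene, had 1.49 and 1.57 opposite 0.81 to 1.19 in TSPYL1, a gene that lies inside it. TRIM32, an E3 ubiquitin ligase gene inside ASTN2, had 1.34 as its highest member value opposite 1.84. HASPIN, a histone H3 kinase gene inside ITGAE, had 1.48 opposite 2.29 in this integrin gene. ASB7 had 3.39 opposite 1.96 in LINS1. SLC5A10 had 2.25 opposite 1.24 in FAM83G, and AMZ1 had 2.00 opposite 1.19 in GNA12, a G protein alpha subunit.

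Over all 81 gene pairs, 9 held a pseudogene and 4 a small or other RNA gene. Of the 10 gene pairs with the largest member values, 7 held a pseudogene or a small RNA gene. The largest of all was in RRP7BP, a pseudogene, with 5.08 at chr22:42565074-42565123 opposite 4.13 in SERHL2 at chr22:42565068-42565117. Both strands fell together over 3 windows, to 2.34 and 1.91. The 2 stronger windows of SERHL2 also overlapped RN7SKP80 (3.55), a copy of the 7SK small nuclear RNA on the minus strand. All 3 RRP7BP windows lay 8021 to 8121 bp outside the RefSeq interval of RRP7BP and within that of RN7SKP80. RPS29, a ribosomal protein gene, had 4.05 opposite 1.43 in RN7SL1, the RNA of the signal recognition particle. E2F3, a cell cycle transcription factor gene, had 3.86 opposite 2.06 in RN7SL128P, and HECTD4 had 2.93 opposite 1.00 in RN7SKP71. In all 4 pairs with a small RNA gene the coding gene was the higher one. ZNF660 (3.83) and ZKSCAN7 (3.62) both lay opposite the pseudogene MPRIPP1 (3.34), and each of these 3 genes had no other window. The ZNF660 window lay 4341 bp outside the RefSeq interval of ZNF660 and inside that of ZKSCAN7. It overlapped the ZKSCAN7 window on the same strand, so the 2 pairs describe largely the same stretch. EEF1A1P19, a copy of the elongation factor gene EEF1A1, had 3.99 opposite 2.13 in AC114956.3, at a place where C5orf34 had 3.26. AEBP2 had 2.44 opposite 2.82 in EEF1A1P4. KANTR had 2.38 opposite 2.30 in ACTG1P10, a copy of an actin gene. RPL3P2, a copy of a ribosomal protein gene, had 3.39 at chr6:31280718-31280767 opposite 2.09 in HLA-B, which encodes an MHC class I heavy chain. Reads of such copies can also match the parent gene. How multiply matching reads were counted is not given in the sources used here, so these values are uncertain.

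The position of the members in their genes was compared with RefSeq (GRCh38.p14), which the rule had not used. For 183 members the symbol stands once on its chromosome in RefSeq, and 161 (88.0%) lay inside that interval, against 97.4% of 24389 listed windows. The 22 windows outside came from 16 genes and took part in 16 gene pairs, 9 of them pairs of coding genes. In 11 genes the distance was over 1000 bp. The 3 member windows of GABBR1, a GABA-B receptor subunit (3.55, 3.52 and 3.30), lay 46109 to 46209 bp beyond the RefSeq interval of the gene, opposite OR2I1P, an olfactory receptor gene with 2.58 and 1.16. The HLA-B window lay 73084 bp from the RefSeq interval of HLA-B, and the FEZ1 window (2.71, opposite 2.32 in EI24) 79067 bp from FEZ1. The farthest was PCAT1, at 456631 bp. The gene assigned to such a window rests on the annotation used by the authors, whose version is not given in the sources used here. CYB5D2, WNT5B and STRADA were in the same position, at 25768, 22715 and 10446 bp.

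In 33 of the 81 gene pairs, the span of the listed windows of each gene reached the RefSeq interval of that gene. In 19 of these 1 gene lay inside the other (11 with the minus-strand gene inside and 8 with the plus-strand gene inside), 6 were convergent with overlapping 3′ ends, 4 were divergent with overlapping 5′ ends, and 4 did not overlap in RefSeq. The only listed windows of FEZ1 and LINS1 lie outside their own intervals. EI24 with FEZ1 and ASB7 with LINS1 were therefore not placed, although their RefSeq intervals do not overlap. The 33 pairs thus leave out some pairs that do not overlap in RefSeq. The convergent pairs included IFNGR2 with TMEM50B and PAQR4 with PKMYT1, and the divergent ones included BOK with BOK-AS1 and JUNB with HOOK2. Among all listed genes placed in this way, 383 pairs overlap on opposite strands in RefSeq, and 29 of them (7.57%) had overlapping windows. The share was 3.39% (10 of 295) in pairs of coding genes and 18.2% (10 of 55) in pairs of a coding gene and a lncRNA. It was 24.7% (19 of 77) where 1 gene lies inside the other, 2.97% (6 of 202) in convergent and 3.85% (4 of 104) in divergent pairs. Listed windows of both genes fell within the stretch that the genes share in 48 of the 383 pairs, and in 27 of these 48 (56.25%) they overlapped.

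Within coding genes placed in RefSeq, 134 members lay at a median of 63.0% of the way from the 5′ to the 3′ end, against 33.4% for 23230 listed windows. The first 10% of the gene held 20.9% of the members and 34.1% of all, and the last 10% held 18.7% and 11.1%. Introns are included in this measure. Of the 99 member genes with 2 or more listed windows, 43 had their strongest window among the members. In 9 of the 99 every listed window was a member, which fixes that outcome. A share to set beside the 43 was not computed, so the number is not read as high or low. A single window was listed for the other 56 member genes. The strongest member windows of the 2 genes of a pair started less than 50 bp apart in 77 of 81 gene pairs, a number that the rule fixes in pairs with 1 window pair. Among the 36 gene pairs with 2 or more, it was so in 32, and the largest distance was 622 bp, in AC092040.1 with PRICKLE2.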

How the data were processed

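RIP-seq libraries of IP-YTHDF1 and Input (2 each) are described by 1 table that the authors deposited. The submitters' processing notes name STAR 2.7.3a and the build GRCh38, and the peak caller and the annotation are not given in the sources used here. The deposited signal value and rank are a score per window on a scale that is not stated, and the deposited q-value is the authors' own, while their p-value was not used. No column is labelled by library (0 per-library columns were left out), so neither depth nor replicate spread is known. How the replicates entered each value is not given in the sources used here. The 26820 rows became 26819 after 1 exact repeat was dropped, and all windows are 50 bp wide. Starts, counted from 0 in the table, are given from 1.

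Windows with another gene identifier on the other strand and an overlap of 1 bp or more were paired and classed by the table's biotypes and by symbols that contain -AS. Shares have Wilson 95% intervals. RefSeq genes were matched by symbol or synonym on the same chromosome where the interval overlapped the span of the gene's listed windows. This placed 6765 of 7550 genes and 109 of 155 member genes. Promoter sequences of RefSeq were read on both strands, and 2766 pairs of overlapping promoters agreed in orientation. The search was tested on simulated windows. Named are all gene pairs with an -AS symbol, the 10 with the largest values, the 5 with the most window pairs, the 5 largest and smallest strand differences, pairs without a coding gene, pairs of the IFN-γ and m6A lists and the windows at the edge of the rule, and other genes were chosen after their values were seen. Members and lists were chosen with earlier results of these data known. Python 3.11.15, pandas 2.3.3, NumPy 2.4.6, statsmodels 0.14.6 and matplotlib 3.10.9 were used.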

Additional observations from a re-analysis of the deposited data

How the results depend on the processing

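No paired analysis was possible because each window has 1 value and none per library, and for the same reason no library could be left out. Counts moved by over 1.5 times under 5 settings, each of which keeps fewer windows or window pairs by construction. A q-value limit of 0.001 left 68 windows, 45 window pairs, 27 gene pairs and 50 genes, of which 48.15% of gene pairs had a lncRNA and 11.1% an -AS name, with a median signal value of 2.295. A signal value of at least 2 left 56 windows, 35 window pairs, 25 gene pairs and 47 genes (48% with a lncRNA, 12% with an -AS name). Without genes at 9 listed windows there were 137 windows, 87 window pairs, 53 gene pairs and 100 genes. The number of window pairs alone moved so far with an overlap of 25 bp or more (93) and with 1 window pair per gene pair (81). The correlation between the strands was 0.557 at the q-value limit, 0.36 at the signal limit, 0.47 without genes at 9 windows, 0.32 at 25 bp, 0.297 with 1 window pair per gene pair, 0.03966 without windows shared on one strand, and, in 2 alternatives chosen after the data were seen, 0.0972 without pseudogenes and small RNA genes and 0.148 without SERHL2. The cause was not tested. The share of pairs of coding genes ran from 20% to 32.35% and the median strand difference from 0.51 to 0.56 over the alternatives run. Motif and exon shares over all windows were not run, since no genome was used here.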

Other observations

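Opposite-strand gene pairs known from textbooks were searched by symbol. THRA with NR1D1, MSH6 with FBXO11 and ACAT2 with TCP1 had a listed window in both genes. None of these 3 pairs had overlapping windows, and their nearest windows lay 7553 to 20853 bp apart.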
